A study of Homo sapiens with 8 samples.

Results

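The regions described here are the H3K36me3 peaks on the short and the long arm of chromosome 6 in HepG2 cells, an established human liver cancer line. Members were all peaks that ended before position 58800000 of chromosome 6 (short arm) or started after position 61900000 (long arm), on the hg19 build. The control list held 1704 such peaks of 35375 in all, with 775 on the short arm and 929 on the long arm. The SETD2 knockdown list held 876 of 23488, with 396 on the short arm and 480 on the long arm. No peak of either list lay between the arms. One stretch of the short arm, from 25700000 to 33500000, holds the histone and major histocompatibility complex (MHC) genes and had 125 control and 63 knockdown peaks.

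The study compared HepG2 cells that carried a control short hairpin RNA (shCtrl) with cells that carried one against SETD2 (shSETD2). Both were made with lentivirus in the presence of 4 µg/mL polybrene and selected with 1 µg/mL puromycin, so the control cells share the virus and the drug. Each condition had 2 libraries of chromatin precipitated with an antibody from Abcam against H3K36me3 and 2 libraries of input DNA, which makes 8 libraries in 4 groups. The replicates were merged before peaks were called, so each condition has 1 list. The labels do not say if replicates were grown as separate cultures, or how many hairpins against SETD2 were used. SETD2 itself could not be checked in these lists, which measure a histone mark and no RNA, and neither could marker genes of liver cells, since gene positions on hg19 were not used.

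SETD2 is the enzyme that adds the third methyl group to lysine 36 of histone H3. It travels with elongating RNA polymerase II, so the mark lies over the bodies of transcribed genes and usually grows toward their 3′ ends. H3K36me3 peaks are therefore broad domains, and a wide peak often spans much of a gene or several neighbouring genes. Replication-dependent histone genes are short and lack introns, and the classical MHC genes present peptides to T cells, with class I genes active in most tissues. HepG2 cells carry extra copies of several chromosome regions, among them part of chromosome 6.

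In the RefSeq gene order of the GRCh38.p14 assembly, used here for names and order alone, the primary sequence of chromosome 6 holds 1042 protein-coding genes. Of these, 603 (57.9%) precede KHDRBS2, taken as the first gene of the long arm, and 439 run from it onward. The stretch from the first histone gene, H2AC1, to the last HLA gene of the order, HLA-DPB1, holds 240 protein-coding genes. They include all 55 histone genes and all 19 HLA genes of that sequence, 15 zinc finger genes and 16 olfactory receptor genes. No gene was assigned to a peak.

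In control cells the short arm was more densely marked than the long arm. It held 13.2 peaks per Mb over 58.8 Mb, and peaks covered 9.81% of it. The long arm held 8.52 peaks per Mb over 109 Mb, and peaks covered 5.98% of it. The histone and MHC stretch stood above the rest of the short arm, with 16.0 peaks per Mb and 12.3% covered, against 12.7 peaks per Mb and 9.42% elsewhere on that arm. Single peaks were of like size on both arms taken whole, though stretches of the long arm differed, as given below. The median control peak was 4.81 kb wide on the short arm (quartiles 3.05 and 9.09 kb) and 4.33 kb on the long arm (quartiles 2.63 and 8.01 kb), beside 3.66 kb over all control peaks. Peaks of 20 kb or more numbered 55 (7.10%) on the short arm and 63 (6.78%) on the long arm, against 5.86% of all control peaks. The interval of that difference between arms ran from -2.10 to 2.81 percentage points. All intervals given here are at 95% and cover counting error only, because peaks of 1 pooled list are not replicates, and no test between conditions was possible. The authors' own fold enrichment over input had a median of 4.28 on the short arm, 4.35 on the long arm and 4.88 over all control peaks.

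Tag density was computed as immunoprecipitated tags per kb of peak per 1000000 filtered tags, with 47880817 filtered tags for the control and 67053273 for the knockdown. Control peaks had a median density of 1.22 on the short arm and 1.15 on the long arm, and in the histone and MHC stretch the median was 1.53. Since fold enrichment divides by the local input, density divided by fold is a rough stand-in for the local input level. That level rises with DNA copies but also with anything else that raises input. Copy number itself was not measured. Density is a mean over the whole peak, so the quotient may also vary with peak width and shape. The quotient also fell as fold rose. Over all control peaks its median was 0.269 in the lowest quartile of fold and 0.180 in the highest. In the control list this quotient had a median of 0.283 on the short arm and 0.262 on the long arm, while the medians of the 22 other chromosomes ran from 0.189 on chromosome 19 to 0.323 on chromosome 20, with a median of 0.216.

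The long arm did not have 1 level. Before 115 Mb, a boundary chosen after the values were seen, its control peaks had a median quotient of 0.221, and beyond it a median of 0.302. The median width of control peaks also differed, at 3.38 kb before the boundary and 5.17 kb beyond it, beside 4.81 kb on the short arm. Relative to the median quotient of the other chromosomes, the short arm stood at 1.31 times, the proximal long arm at 1.02 times and the distal long arm at 1.402 times. The knockdown list, made from other libraries, had ratios of 1.35, 1.04 and 1.36 for the same stretches. Among 5-Mb blocks with at least 10 control peaks, medians ran from 0.265 to 0.336 over 12 short-arm blocks. They ran from 0.206 to 0.239 over 9 proximal blocks and from 0.241 to 0.326 over 11 distal blocks. The boundary was chosen after these values were seen, so the narrow gap between proximal and distal blocks is no support for it. One block was unlike its neighbours. The first block of the long arm, with 5 control peaks, had medians of 0.346 and 0.383 in the control and knockdown lists. The order of the 3 stretches was the same among control peaks of 5 kb or less, with 0.295 on the short arm, 0.223 on the proximal and 0.311 on the distal long arm. It was also the same at like fold. In the lowest quartile of fold over all control peaks the medians were 0.325, 0.259 and 0.345. In the highest quartile they were 0.239, 0.190 and 0.253. The control median of the short arm was above those of 20 of the 22 other chromosomes, and that of the distal long arm above those of 21. Here and below, the other chromosomes were taken whole and not cut at a boundary chosen after their values were seen.

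**Figure D1:**
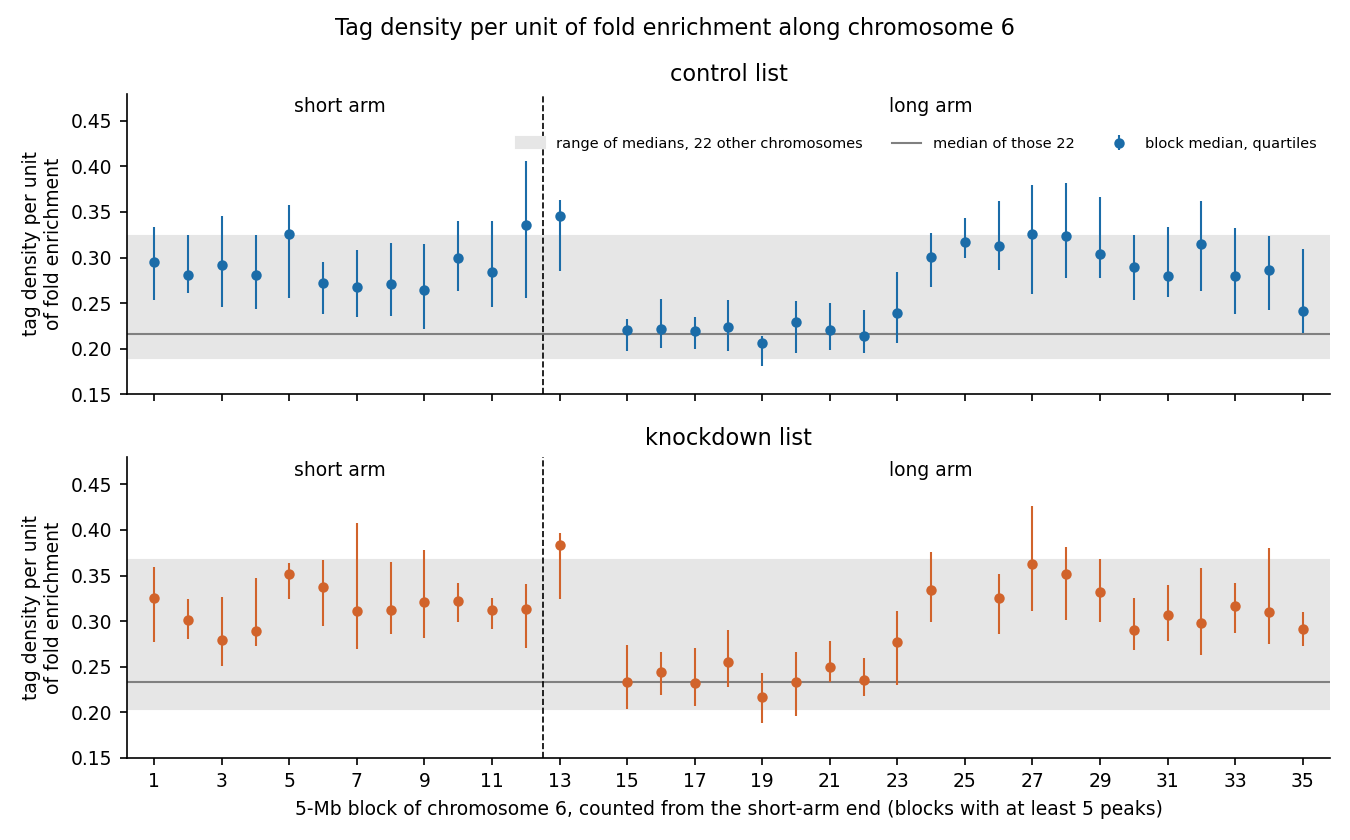
Median tag density (tags per kb per 1000000 filtered tags) divided by fold enrichment in 5-Mb blocks of chromosome 6, control list above and knockdown list below; points are block medians, bars are quartiles, and the grey band is the range of medians of the 22 other chromosomes, with their median as a line. The proximal long arm sits near the line at 0.221 in the control list, and the short arm (0.283) and the distal long arm (0.302) sit above it.

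After SETD2 knockdown both arms carried less peak length, and the long arm lost the larger part. Peaks covered 5.77 Mb of the short arm in the control and 2.37 Mb in the knockdown, which is 41.1% of the control length. On the long arm the length went from 6.52 to 2.40 Mb, or 36.7%. Over the whole genome the share was 48.4%, and the median of the 22 other chromosomes was 47.2%. The proximal long arm stood at 45.0% (2.55 to 1.15 Mb), the histone and MHC stretch at 44.5% (0.962 to 0.428 Mb) and the distal long arm at 31.4% (3.97 to 1.25 Mb). Only chromosome 20, at 29.4%, was lower than the distal long arm. The arms and the stretches of the long arm came in the same order in immunoprecipitated tags. Peaks of the short arm held 1.22% of filtered tags in control cells and 0.314% in knockdown cells, 3.88 times less. Those of the long arm held 1.17% and 0.271%, 4.30 times less, with 3.36 times less for its proximal and 5.06 times less for its distal stretch, beside 3.29 times for all peaks. Both measures count all knockdown peaks, also those on no control peak, so they are not shares of control length retained. Such peaks covered 430 kb on the short arm and 9.41 kb in its histone and MHC stretch. They covered 322 kb on the proximal and 456 kb on the distal long arm. Shares without them were not computed. In bulk chromatin, fewer cells with the mark and less mark per cell cannot be told apart, and tags outside peaks were not analysed here. When 1 score limit, the one at which the control list reached an FDR of 5%, was applied to both lists, the arms came to 27.0% and 27.3%, and their order turned.

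**Figure D2:**
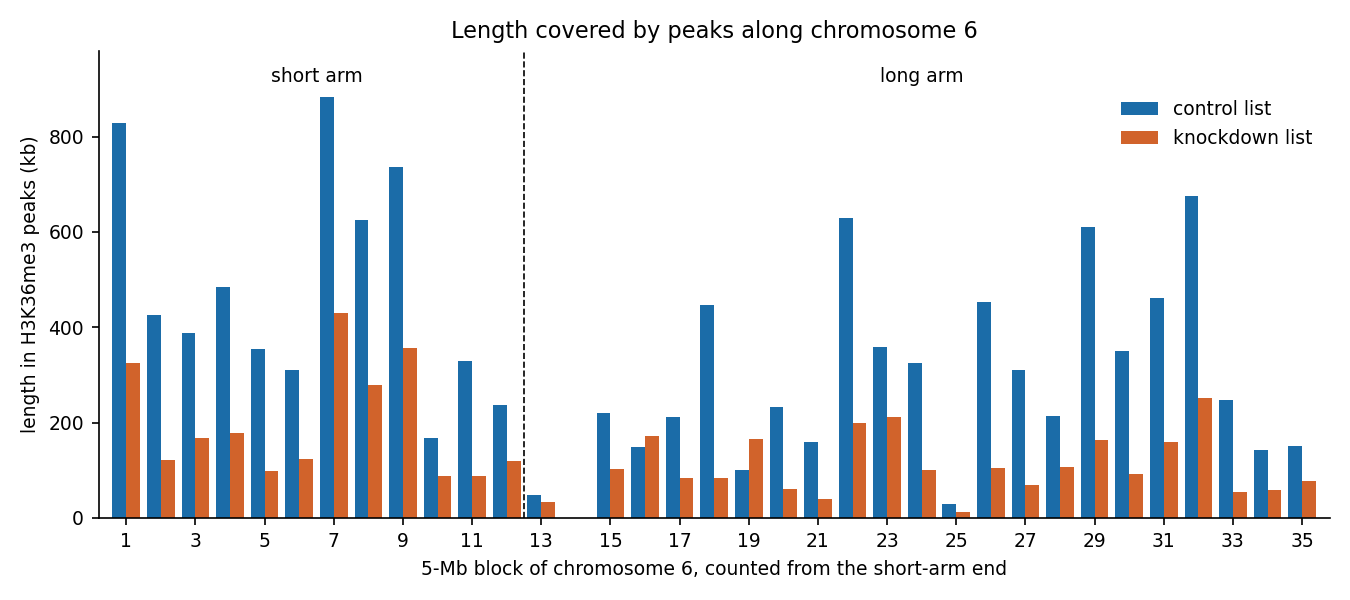
Length covered by H3K36me3 peaks (kb) in each 5-Mb block of chromosome 6 in the control and the knockdown list; bars start at 0 and each is a single pooled list. The knockdown bar is shorter in most blocks and longer in block 16 (171 against 148 kb) and block 19 (166 against 101 kb), both on the proximal long arm.

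A control peak was counted as kept where at least 1 bp of it lay under a knockdown peak. Most knockdown peaks were weak calls, with a median FDR of 73.1% on the short arm, 71.6% on the long arm and 68.9% over all. Control peaks had medians of 5.55%, 6.28% and 4.86% in the same order. Of all control peaks 39.5% were kept. On the short arm 269 of 775 were kept, which is 34.7% (interval 31.4 to 38.2%), and on the long arm 236 of 929, or 25.4% (22.6 to 28.3%). The difference between the arms, short minus long, was 9.31 percentage points (4.94 to 13.7), beyond its counting error. Within the long arm, 132 of 431 proximal peaks (30.6%, 26.3 to 35.2%) and 104 of 498 distal peaks (20.9%, 17.4 to 24.7%) were kept, a difference of 9.74 points (4.11 to 15.4). The short arm was 13.8 points above the distal long arm (8.82 to 18.6). Against the proximal long arm it was 4.08 points higher, with an interval that includes 0 (-1.48 to 9.47). The short arm thus differed more from the distal stretch, whose kept share was below that of each of the 22 other chromosomes taken whole. The interval of the lowest of these, chromosome 20 (20.6 to 28.5%), overlapped that of the distal stretch. Among 5-Mb blocks with at least 10 control peaks, kept shares ran from 27.3 to 41.7% on the short arm. They ran from 11.5 to 50% on the proximal and from 15 to 40% on the distal long arm, so the ranges overlapped. Chromosome 20, which had the highest quotient of density over fold (0.323), had the lowest kept share among those 22, at 24.4%. Next in quotient came chromosomes 2 (0.289), 16 (0.240) and 17 (0.226), with kept shares of 27.4%, 33.5% and 39.0%. Near the median quotient the shares differed widely. Chromosomes 18, 14 and 4, with quotients of 0.216, 0.217 and 0.217, had kept shares of 28.8%, 29.6% and 31.0%. Chromosomes 3 and 5, both at 0.217, had kept shares of 42.0% and 47.7%. What part the local input level had in the kept share was not tested.

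**Figure D3:**
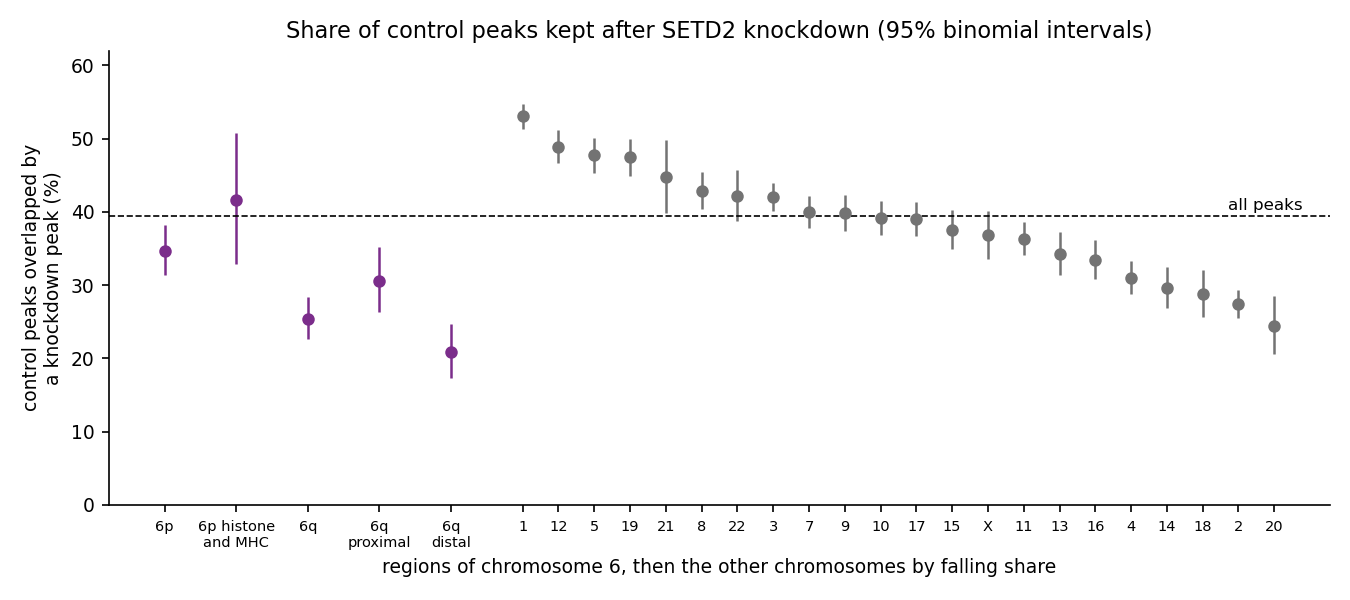
Share of control peaks overlapped by a knockdown peak (percent, with exact binomial 95% intervals) on the short arm (6p), in its histone and MHC stretch, on the long arm (6q) and its proximal and distal stretches, and on the 22 other chromosomes in falling order; the dashed line is the share of all control peaks (39.5%). The distal long arm, at 20.9%, is the lowest point shown.

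Whether a peak was kept followed its enrichment in the control list. The arms were therefore also compared within quartiles of fold enrichment set over all control peaks (limits 3.88, 4.88 and 6.98). Short minus long arm, the difference was 8.39 points in the lowest quartile (4.34 to 12.8) and 12.6 in the third (1.81 to 23.1). It was 4.27 points in the second (-2.28 to 11.5), an interval that includes 0. Among the most enriched peaks, 78.3% were kept on the short arm and 80.1% on the long arm. That difference, -1.79 points, had the opposite sign, and its interval also included 0. The stretches of the long arm were then taken apart. In the lowest quartile 12.1% of short-arm peaks (8.63 to 16.2%), 6.61% of proximal (2.90 to 12.6%) and 2.14% of distal long-arm peaks (0.70 to 4.92%) were kept, beside 10.3% of all control peaks in that quartile. In the second quartile the shares were 13.9%, 12.5% and 5.56%, beside 17.7%. In the third they were 51.1% (42.4 to 59.7%), 38.1% and 38.9%, beside 44.1%. Among the most enriched peaks, 88.3% of proximal long-arm peaks (79.0 to 94.5%) were kept, against 78.3% on the short arm (71.6 to 84.1%) and 72.2% on the distal long arm (60.9 to 81.7%), beside 85.6% of all control peaks. The interval of the difference left out 0 for the short arm against the distal long arm in the lowest quartile (9.92 points, 5.70 to 14.2) and the second (8.35 points, 0.13 to 15.5), and included 0 in the third (-0.88 to 24.5) and the highest (-4.71 to 18.2). The short arm differed from the proximal long arm beyond counting error in the third quartile alone (13 points, 0.35 to 24.98), and in the highest the interval was -18.5 to 0.56. Between proximal and distal peaks it left out 0 in the lowest quartile (4.47 points, 0.23 to 10.5) and the highest (16.2 points, 3.62 to 28.2), and included 0 in the other two. The distal arm also held more weak peaks, with 47.0% of its control peaks in the lowest quartile, against 39.6% on the short arm and 28.1% on the proximal long arm.

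**Figure D4:**
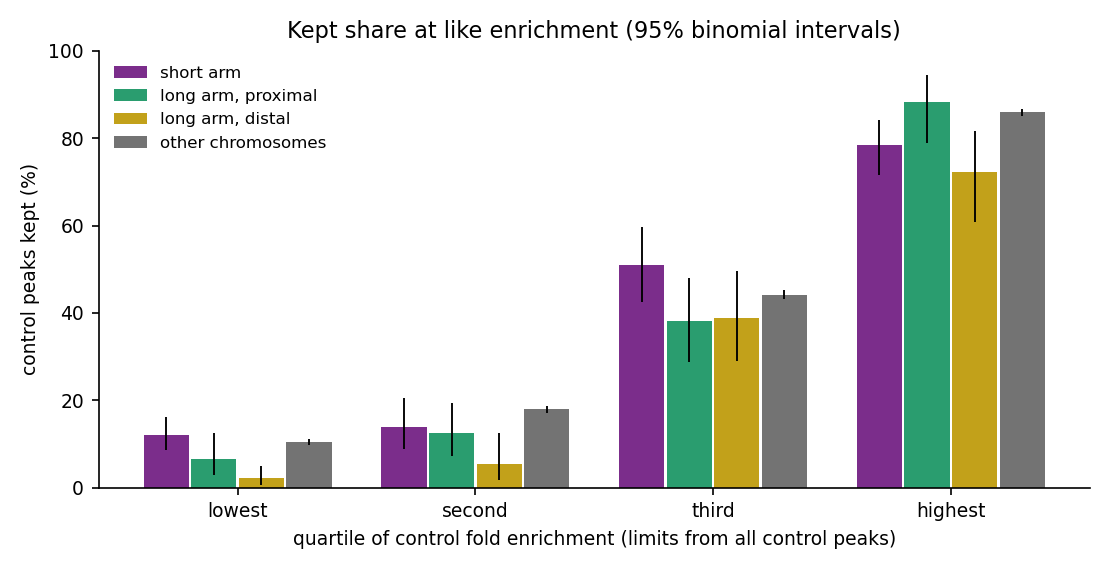
Share of control peaks kept (percent, bars from 0, exact binomial 95% intervals) by quartile of control fold enrichment for the short arm, the proximal and distal long arm and the other chromosomes. In the lowest quartile the distal long arm stood at 2.14% and the short arm at 12.1%, and in the highest at 72.2% and 78.3%.

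Peaks with the most tags were not the most often kept. Of control peaks with 2001 to 5000 tags, 86.8% were kept on the short arm and 81.1% on the long arm, beside 88.7% of all control peaks of that size. Above 5000 tags only 7 of 16 short-arm peaks (43.8%, 19.8 to 70.1%) and 6 of 12 long-arm peaks (21.1 to 78.9%) were kept, beside 65.4% of all. The lowest score in that class was 327.03 on the short arm and 57.68 on the long arm, and the lists begin at a score of 50. Of peaks 20 kb wide or more, 39 of 55 (70.9%) on the short arm and 49 of 63 (77.8%) on the long arm were kept, beside 84.2% of all such peaks. The interval of that difference, -22.4 to 8.72 points, includes 0.

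Kept domains were more often broken up on the long arm. There 62 kept peaks (26.3%) lay under 2 or more knockdown peaks, like the 26.5% of all kept peaks, while on the short arm 41 (15.2%) did, a difference of short minus long arm of -11.03 points (-18.1 to -3.96). Of the 22 other chromosomes, 21 were above the short arm. Knockdown peaks covered a median of 75.2% of each kept peak on the short arm, 57.1% on the long arm and 68.5% over all kept peaks. The most pieces over 1 control peak was 5 on both arms.

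Where a control and a knockdown peak overlapped by at least 50% of each, the density in the 2 lists could be set side by side. On the short arm 174 of 177 such pairs were less dense in the knockdown, and on the long arm 109 of 110, beside 98.1% of all 7543 pairs. Median density on the short arm was 1.69 in control pairs and 1.1 in knockdown pairs, and on the long arm 1.66 and 1.06. As a log2 ratio, knockdown over control had a median of -0.66 on the short arm (-0.72 to -0.58) and -0.66 on the long arm (-0.76 to -0.58), beside -0.59 over all pairs. At least 1.5 times less dense were 102 short-arm pairs (57.6%) and 64 long-arm pairs (58.2%), beside 50.1% of all pairs, with an interval of the difference from -12.0 to 11.1 points. So the matched peaks of the arms, which are those that stayed above the caller's limit, did not differ in loss beyond counting error, while the share of peaks kept did. Proximal pairs (64) had a median of -0.65 and distal pairs (46) one of -0.77 (-0.93 to -0.57).

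**Figure D5:**
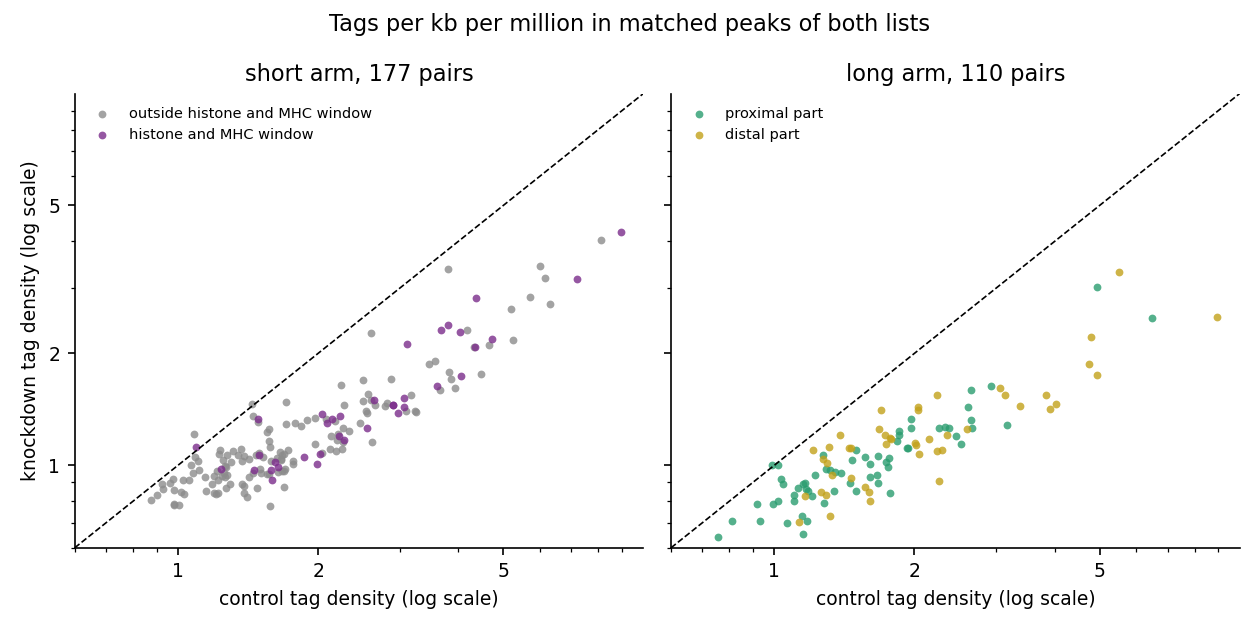
Tag density (tags per kb per 1000000 filtered tags, log scales) of matched peaks in the control (x) and the knockdown (y), short arm left and long arm right; each point is 1 pair and the dashed line marks equal density. Nearly all points are less dense in the knockdown (174 of 177 and 109 of 110), and the pairs of the histone and MHC stretch had a median log2 ratio of -0.81.

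In the histone and MHC stretch the mark started higher and its matched peaks lost more. Of its 125 control peaks, 84 (67.2%) had an FDR of 5% or less, beside 50.5% of all control peaks and 48.0% on the short arm as a whole. In the knockdown 10 of 63 (15.9%) did, beside 5.3% of all knockdown peaks, 7.07% on the short arm and 2.71% on the long arm. Kept were 52 of 125 (41.6%, 32.9 to 50.8%), against 33.4% on the rest of the short arm, a difference of 8.22 points whose interval includes 0 (-0.84 to 17.7). Its 36 matched pairs had a median log2 ratio of -0.81 (-0.99 to -0.68), against -0.62 in the 141 other short-arm pairs. At least 1.5 times less dense were 29 of the 36 (80.6%), 28.8 points more than the 51.8% outside (11.2 to 41.5). Their control and knockdown median densities were 2.41 and 1.37, against 1.58 and 1.07 in the other short-arm pairs, so they were denser in both lists. What part the higher starting density had in the larger loss was not tested. Only 1 of its 63 knockdown peaks (1.59%) lay on no control peak, beside 17.0% of all knockdown peaks. Control peaks were spread unevenly over the stretch. The window of 1 Mb from 30000001 held 249 kb in control peaks, and the one from 31000001 held 241 kb, while that from 29000001 held 7.85 kb.

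The 3 most enriched control peaks of the short arm were all kept. The first, from 32938390 to 32950272 within the MHC stretch, had a fold of 24.8 and 5080 tags, and its control density of 8.93 (8.68 to 9.18) compared with 4.25 (4.11 to 4.40) in knockdown cells, 2.10 times lower. The peak from 43738570 to 43754485, with a fold of 24.25, had densities of 4.19 and 2.31 (log2 ratio -0.86). The peak from 34383104 to 34393913, with a fold of 23.7, had densities of 6.13 and 3.19 (log2 ratio -0.94). All 3 were less dense in the knockdown by more than the short-arm median.

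Some of the strongest short-arm domains had no knockdown peak. The widest, 49.99 kb from 11182413 to 11232399, had a fold of 20.8, 14426 tags and a control density of 6.03 (5.93 to 6.13), and its nearest knockdown peaks were 44.1 and 143 kb away. The peak from 7283835 to 7312073 had a fold of 20.1 and a density of 5.13, with knockdown peaks 32.3 and 280 kb away. Within the MHC stretch, the domain from 31588976 to 31620029 (31.1 kb, fold 19.95) had a density of 5.12 and no knockdown peak, while the neighbouring one from 31496957 to 31509669 (fold 20.95) was kept at 3.16 against 7.20 (log2 ratio -1.19). An uncalled domain is not an unmarked one, since tags outside peaks were not analysed here.

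On the long arm the most enriched control peak lost the most of all 110 pairs. It ran from 138188487 to 138204796 on the distal stretch, with a fold of 26.2 and 6962 tags, and its control density of 8.91 (8.71 to 9.13) compared with 2.50 (2.41 to 2.60) in knockdown cells, 3.56 times lower (log2 ratio -1.83). The next, from 74224506 to 74230960 (fold 22.35), lost less, with densities of 4.93 and 3.01 (log2 ratio -0.71). The third, from 111199202 to 111219617 (fold 20.9), had densities of 2.92 and 1.64 (log2 ratio -0.84). The widest control peak of the arm, 58.6 kb from 158461715 to 158520333, lay under 3 knockdown peaks that covered 34.9% of it, at a density of 1.02 against 2.70. Without any knockdown peak were the domains from 86318889 to 86352364 (fold 18.35, density 3.88) and from 108211152 to 108251501 (fold 15.6, density 2.46), the latter 3.25 kb from its nearest knockdown peak and the former 84.1 kb.

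The most enriched knockdown peaks had folds of 8.57, 8.43 and 8.07 on the short arm and 8.62, 8.35 and 7.89 on the long arm. On the short arm they began at 42990394, 32938303 and 30567826, and all 3 lay on control peaks; that at 30567826 had a density of 2.19 against 4.74 (log2 ratio -1.12). On the long arm those from 111203493 and 74186690 lay on control peaks. The one from 144756461 to 144764869 had an FDR of 0.36% and a density of 1.83, and lay on no control peak, the nearest being 2.22 kb away.

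Knockdown peaks on no control peak were more common on the long arm. They numbered 145 of 480 there (30.2%, 26.1 to 34.5%) and 81 of 396 on the short arm (20.5%, 16.6 to 24.8%), a difference of short minus long arm of -9.75 points (-15.4 to -3.96), beside 17.0% of all knockdown peaks. The share was 23.8% on the proximal stretch and 37.5% on the distal stretch (31.1 to 44.2%). The latter was above all 22 other chromosomes taken whole, though the interval of chromosome 20 overlapped it (28.7 to 41.8%). Of the knockdown peaks on no control peak, 3 on the short arm and 2 on the long arm reached an FDR of 5% or less. Over the genome 1.8% of knockdown peaks on no control peak did, and 5.3% of all knockdown peaks. The most enriched on the short arm ran from 47242433 to 47263629, with a fold of 7.15 but an FDR of 79.4%. The next, from 10397063 to 10404068, had a fold of 6.30 and an FDR of 0.21%.

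The loss was uneven from one stretch to the next. Over windows of 1 Mb with at least 50 kb in control peaks, the knockdown length was a median of 37.5% of the control length in 38 short-arm windows (range 18.99 to 67.2%) and 29.6% in 44 long-arm windows (range 3.60 to 284%). The window with the most control length on the short arm, from 7000001, went from 261 to 69.2 kb, and that from 30000001 in the MHC stretch from 249 to 146 kb. On the long arm the window from 158000001 went from 359 to 95.9 kb and that from 151000001 from 231 to 87.1 kb. The lowest shares of the long arm were 3.60% in the window from 143000001 (197 to 7.08 kb) and 5.79% in that from 86000001 (101 to 5.82 kb). On the short arm the lowest was 18.99%, from 16000001, and the highest 67.2%, from 12000001. Among windows with a peak in either list, whatever their control length, knockdown peaks covered more than control peaks in 12. These were 3 of 49 on the short arm and 9 of 82 on the long arm. The 3 on the short arm held no control peak, and knockdown peaks covered 3.99 to 5.465 kb of each. Control peaks alone were found in 7 windows of the long arm and 0 of the short arm. The 2 highest long-arm shares, at 50 kb or more of control length, were in the windows from 90000001 (54.6 to 155 kb, 284%) and from 79000001 (83.9 to 84.9 kb, 101%).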

How the data were processed

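H3K36me3 ChIP-seq of control and SETD2 shRNA HepG2 cells was used, with 2 immunoprecipitated and 2 input libraries a condition. Reads were handled with FastQC 0.11.5 and Bowtie 1.1.2 on hg19, per the submitters' processing notes. Peaks were called with MACS 1.4.2 on merged replicates against merged input at a p-value limit of 1e-05, per the file headers. The deposited tag counts are whole, unnormalized tags per peak. The deposited score is the p-value on a log10 scale times -10. The fold enrichment, the ratio to the local input background, and the FDR, in percent, are also the authors' deposited values. Filtered tags were 47880817 and 67053273 for the immunoprecipitates and 67158956 and 69095038 for input, per the file headers.

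Peaks were assigned to arms by position, and overlaps, covered length and tag density were computed with Python 3.11.15, pandas 2.3.3, NumPy 2.4.6, SciPy 1.17.1, statsmodels 0.14.6 and matplotlib 3.10.9. Shares carry exact Clopper-Pearson, densities Poisson, share differences Newcombe and medians order-statistic 95% intervals. The long arm was measured to the end of its last control peak. The shorter deposited lists equalled the chromosome 6 peaks with an FDR of 5% or less (773 and 41), so the full tables were used. The code was checked on simulated peaks. Named on each arm were the 3 control and 3 knockdown peaks of highest fold, the widest control peak, and the 2 highest-fold peaks of each list without a counterpart, plus the 3 highest-fold control peaks of the histone and MHC stretch and the 1-Mb windows with the most control length or the highest and lowest knockdown share. Gene lists drawn up for both arms were not applied, since gene positions on hg19 were not used here. RefSeq's 7 protein-coding genes on alternate sequences of chromosome 6 were left out of the gene order. The members and lists were chosen with earlier results of these data known. The split of the long arm at 115 Mb, the quotient of density over fold, the tag classes and the runs of peaks were chosen after the values were seen.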

Additional observations from a re-analysis of the deposited data

How the results depend on the processing

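Each condition is 1 pooled list, so leaving out a replicate could not be run. No paired analysis was possible because peaks were called on merged replicates. With an FDR limit of 5%, the same as using the shorter lists, knockdown length was 7.02% of control on the short and 3.18% on the long arm, kept shares were 6.72% and 2.49%, and median log2 ratios were -0.94 (22 pairs) and -0.98 (8 pairs). That limit falls at a control score of 227.88 and a knockdown score of 939.74. With 227.88 in both lists, chosen after seeing the data, length was 27.0% and 27.3%, kept shares 26.1% and 19.5%, and log2 ratios -0.84 and -0.84. At a score of 100 or more, length was 35.4% and 31.9%, the short-arm kept share 30.3% and its log2 ratio -0.73. With at least 50% of a control peak overlapped, kept shares were 26.2% and 14.6%. A reciprocal overlap of 80% gave -0.75 on the short arm. Without the histone and MHC stretch, short-arm length was 40.4%. The short arm had the larger kept share in each setting above for which it was computed on both arms. In alternatives added after seeing the data, proximal and distal kept shares were 3.14% and 1.90% at an FDR of 5% or less, 31.3% and 15.4% at a score of 100, 18.8% and 11.04% at 50% overlap, and 24.6% and 14.8% at a score of 227.88. The cause of these moves was not tested.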

Other observations

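Adjoining peaks of 1 list with none of the other list on them, joined over gaps of up to 5 kb, formed long runs. The longest run of knockdown peaks lay on the long arm from 90356097 to 90512278. It spanned 156 kb, of which its 19 peaks covered 135 kb and held 9336 tags. The density over the covered length, as for all runs here, was 1.03 (1.01 to 1.05). Folds ran from 3.01 to 6.44 and FDRs from 8.49 to 84.9%, so none passed an FDR of 5%. Control peaks lay 8.49 kb before and 28.4 kb after it. A second, from 76332640 to 76392929, spanned 60.3 kb with 9 peaks that covered 48.8 kb at a density of 1.05, with a lowest FDR of 0.38%. On the short arm the longest had 3 peaks over 27.0 kb. Runs of control peaks without knockdown peaks were of like length on both arms. One from 7171388 to 7242487 on the short arm spanned 71.1 kb with 4 peaks at a density of 2.69, and one from 160143087 to 160210087 on the long arm spanned 67.0 kb with 3 peaks at 4.04. All of these runs were picked for their length after the values were seen.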
